A study of Homo sapiens with 36 samples.

Results

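The cytosolic ribosomal protein genes are the genes for the proteins of the cytoplasmic ribosome. They were taken as the protein-coding genes whose symbols begin RPL or RPS followed by a number with an optional A or X, together with RPLP0, RPLP1, RPLP2 and RPSA. Of the 29872 genes in the deposited table, 77 met this definition, 46 of the large (60S) and 31 of the small (40S) subunit, and all 77 were tested. They were measured in LNCaP cells, a human prostate cancer line grown in culture, in 36 libraries that form 12 groups of 3 biological replicates. Cells received vehicle, AU2-94 at 1 or 2 µM, atirmociclib at 1 or 2 µM, or ribociclib at 2 µM, for 24 h or 72 h. AU2-94 and atirmociclib are classed as CDK4-selective inhibitors and ribociclib inhibits CDK4 and CDK6, the kinases that phosphorylate the retinoblastoma protein in G1. In the authors' kinase assays atirmociclib was less selective for CDK4 than AU2-94 and also inhibited other CDKs. The comparisons asked how the ribosomal protein transcripts stood against vehicle at each time, between agents and doses, and between times. Cells for 72 h were seeded at a lower density than those for 24 h, so time and density cannot be told apart.

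The ribosome reads mRNA with its small subunit and forms peptide bonds with its large subunit, and its proteins are made in matched amounts. Growing cells spend much of their transcription and translation on these proteins, whose mRNAs carry a 5′ terminal oligopyrimidine (TOP) tract, a C at the transcription start followed by an uninterrupted run of C and T. The tract places their translation under mTORC1 and the RNA-binding protein LARP1, which also bears on how stable these mRNAs are.

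RefSeq promoter windows (GRCh38.p14) matched 62 of the 77 genes. A C at the start followed by at least 4 bases that were each C or T was found, on the gene's own strand, in 46 of these 62 genes (74.2%) and in 5.14% of all 27305 genes in the same table, counting a gene once if any of its starts matched. The windows below hold 15 bases before and the first 15 bases of the transcript, which is 5′ untranslated sequence of the first exon, with the tract from the start in capitals. They show the gene with the highest change at 24 h (RPL13A), large and small subunit genes described below by their change or role, the smallest protein of the set (RPL41) and the gene with the lowest change at 24 h (RPS26), whose RefSeq start lacks the tract.
RPL13A, chr19:49487593-49487622, + strand: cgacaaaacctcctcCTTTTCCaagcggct
RPL31, chr2:101002274-101002303, + strand: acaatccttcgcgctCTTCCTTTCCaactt
RPLP2, chr11:809952-809981, + strand: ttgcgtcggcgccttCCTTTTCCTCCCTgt
RPL22, chr1:6199581-6199610, - strand: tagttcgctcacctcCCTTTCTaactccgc
RPL41, chr12:56116618-56116647, + strand: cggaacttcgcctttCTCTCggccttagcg
RPS6, chr9:19380222-19380251, - strand: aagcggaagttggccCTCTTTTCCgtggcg
RPS19, chr19:41860240-41860269, + strand: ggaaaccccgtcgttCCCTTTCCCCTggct
RPS26, chr12:56041903-56041932, + strand: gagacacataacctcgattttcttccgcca

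The 77 genes were abundant in every library. Their lowest single value was 1688 normalised counts, and their means over the 36 libraries ran from 2435 to 49755. Library totals lay between 20675156 and 22692555 normalised counts. The replicate standard deviation on the log2 scale had a median of 0.0675 over the 77 genes, against 0.158 over all genes tested at 24 h. The 6 luminal prostate markers were high in all libraries (KLK3, which encodes prostate-specific antigen, 19802 to 55194 normalised counts). Of 3 markers each for basal, fibroblast, immune and endothelial cells, KRT5, TP63, COL1A2, DCN, PTPRC, CD3E, PECAM1 and CDH5 were at 0 in 25 to 35 of the 36 libraries and reached at most 7.09. The other 4 were detected in every library at up to 713 (KRT14, COL1A1, CD68 and VWF). All 6 luminal markers and the basal KRT14 (4.35 to 88.6) rose in all 5 treatments at 24 h, when COL1A1 fell in 3 and CD68 in 2. At 72 h, KRT14 (1.79 to 2.26 on the log2 scale) and the endothelial VWF (0.61 to 1.67) rose in all 5 and CD68 in 1. HOXB13 rose in 3 at that time and the other 5 luminal markers in all 5. The part of these markers in the results below was not tested.

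At 24 h, treatment with each agent was accompanied by a higher level of nearly all ribosomal protein transcripts. Together they held 5.17 to 5.41% of the library total in the 3 vehicle libraries and 6.24 to 6.83% in the 15 treated libraries, so that every treated library stood above every vehicle library. At 72 h the order of the shares turned. The share was 5.60 to 5.82% in vehicle and 5.16 to 5.73% in treated cells, and 14 of 15 treated libraries stood below all vehicle libraries. The exception was replicate 2 of ribociclib, the highest of the treated libraries at 72 h.

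**Figure D1:**
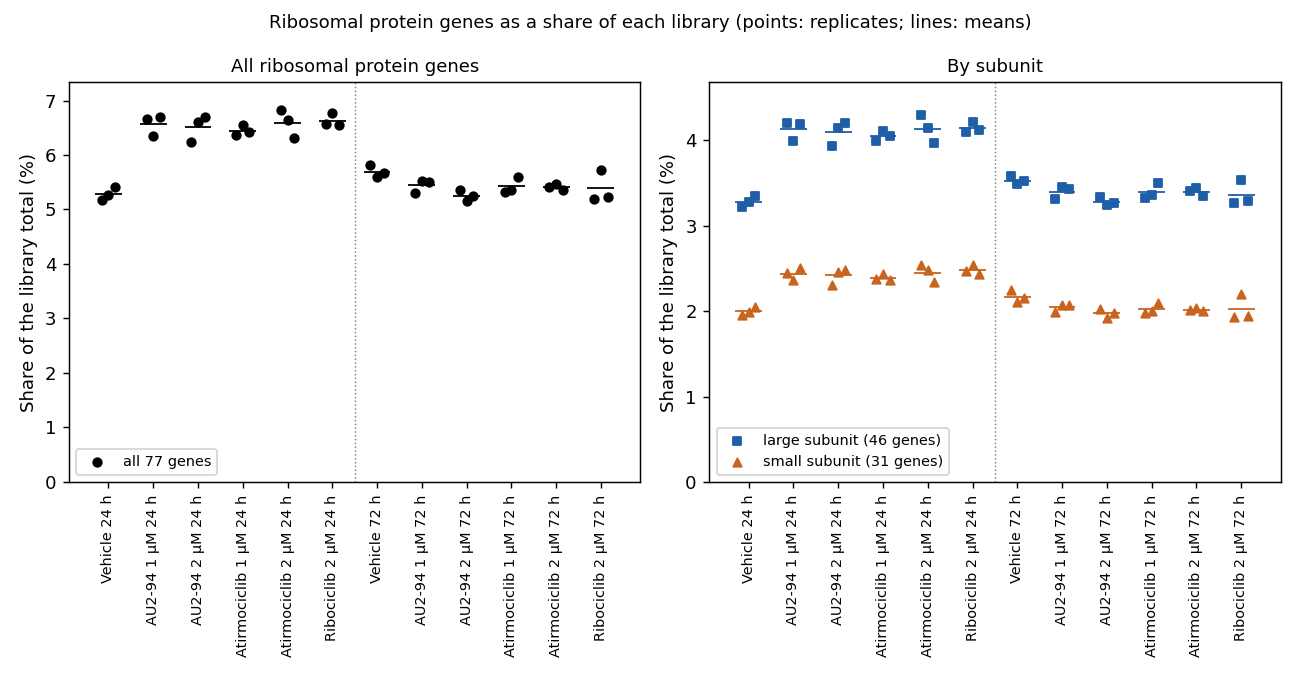
Share of each library's total normalised counts (%) held by the 77 ribosomal protein genes (left) and by the genes of each subunit (right), with 1 point per library and a line at the group mean, for 12 groups of 3. The 15 treated libraries at 24 h (6.24 to 6.83%) lie above the 3 vehicle libraries (5.17 to 5.41%), whereas at 72 h 14 of 15 treated libraries lie below vehicle.

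Tested gene by gene (limma on log2(value + 1), Benjamini-Hochberg over all genes), 76 of 77 genes rose with AU2-94 1 µM at 24 h, with a median log2 fold change of 0.35, where 14.3% of all genes tested rose. With AU2-94 2 µM, 73 rose (median 0.33, background 16.0%), with atirmociclib 1 µM 75 (median 0.33, background 16.6%), with atirmociclib 2 µM 77 (median 0.39, background 18.6%) and with ribociclib 77 (median 0.37, background 16.8%). None fell with any agent, either at an adjusted p of 0.05 or at an unadjusted p under 0.05 in limma. The median over all genes tested was 0.00 in each comparison when rounded to 2 decimals. In 69 of the 77 genes all 15 treated libraries exceeded all 3 vehicle libraries, as did 11.0% of all genes tested. The changes were small: the greatest was 0.62, so no gene reached a log2 fold change of 1. The rise was called in all 5 treatments for 73 of the 77 genes and for 9.2% of all genes tested. The exceptions were RPL5 and RPL30, called in 4, RPS21, called in 3, and RPS26, called in 2.

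RPL13A showed the highest mean change at 24 h (0.59 over the 5 treatments). It encodes a large subunit protein also known from translational silencing of inflammatory transcripts, and its gene hosts 4 annotated small nucleolar RNAs. It measured 37357, 39045 and 37393 normalised counts in vehicle, 58245, 54908 and 57091 with AU2-94 1 µM, and 54015, 55267 and 58273 with AU2-94 2 µM. It measured 56000, 58313 and 56210 with atirmociclib 1 µM, 61167, 59394 and 54813 with atirmociclib 2 µM, and 57470, 58033 and 58503 with ribociclib. All treated libraries were above all vehicle libraries, and the agents overlapped one another. The log2 fold changes were 0.56 to 0.62 (SE 0.038), with limma adjusted p between 3.83e-10 and 2.85e-09.

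RPL13, RPL37A and RPL31 followed, with mean changes of 0.56, 0.51 and 0.51. RPL13, a large subunit protein, measured 18406, 18626 and 19218 in vehicle at 24 h, and from 25591 to 30076 (median 27778) in the 15 treated libraries. RPL37A, a small zinc finger protein of the large subunit, measured 12383, 12650 and 13548 in vehicle and 16417 to 20126 (median 18277) in treated libraries. RPL31, which lies at the exit of the nascent peptide tunnel, measured 7825, 7951 and 8297 in vehicle and 10096 to 12332 (median 11515) in treated libraries. Treated and vehicle libraries did not overlap for any of the 3. The 7 proteins of the tunnel exit (RPL17, RPL19, RPL23A, RPL26, RPL31, RPL35 and RPL39) all rose in all 5 treatments, with medians of 0.39 to 0.43.

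At the other end, RPS26 had a mean change of 0.13. RPS26 sits where mRNA leaves the small subunit. It measured 12466, 12042 and 13395 in vehicle, 13768, 13012 and 13954 with AU2-94 1 µM, and 12124, 13393 and 13596 with AU2-94 2 µM. It measured 12800, 13930 and 14250 with atirmociclib 1 µM, 14538, 14379 and 14719 with atirmociclib 2 µM, and 14277, 15399 and 13864 with ribociclib. Vehicle overlapped AU2-94 and atirmociclib 1 µM, and lay below atirmociclib 2 µM and ribociclib. RPS26 passed the test with these last 2 treatments (0.20 each, SE 0.053, limma adjusted p = 0.0059 and 0.0073), but not with AU2-94 1 µM (0.10, adjusted p = 0.161), AU2-94 2 µM (0.04, adjusted p = 0.573) or atirmociclib 1 µM (0.11, adjusted p = 0.121). RPL8 and RPS3 also had low mean changes (0.20 and 0.24) and rose in all 5 treatments as deposited, although under quantile normalisation the direction turned in 4 and 3 of the 5 treatments.

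Of the genes chosen by role, RPLP0, the scaffold of the P stalk that recruits elongation factors, measured 38766, 39476 and 40013 in vehicle at 24 h and 46217 to 54500 (median 49435) in treated libraries, with log2 fold changes of 0.29 to 0.40. Its partners RPLP1 (0.34 to 0.41) and RPLP2 (0.18 to 0.40) also rose in all 5 treatments. RPL5 and RPL11 join the 5S rRNA in a particle that can bind MDM2 when ribosome assembly is disturbed. RPL11 rose in all 5 treatments (0.32 to 0.36) and RPL5 in 4, with wider replicate error (SE 0.095 against 0.046) and an adjusted p of 0.0611 with AU2-94 2 µM. RPL10, which is added late to the large subunit, rose by 0.26 to 0.31, and RPL22, an RNA-binding protein of the same subunit, by 0.23 to 0.31. RPL41 rose by 0.21 to 0.29, but under quantile normalisation its change with atirmociclib was at or just below 0.

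In the small subunit, RPS6, the substrate of the S6 kinases downstream of mTORC1, measured 27082, 28343 and 27443 in vehicle and 34091 to 38242 (median 36522) in treated libraries at 24 h, and rose by 0.39 to 0.42. RPSA, known also as the laminin receptor, rose by 0.25 to 0.34. RPS19, the gene most often mutated in Diamond-Blackfan anaemia, rose by 0.29 to 0.37, and RPS27A, made as a fusion with ubiquitin, by 0.34 to 0.44. All 14 proteins of the 40S head rose in all 5 treatments, with medians of 0.30 to 0.39.

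**Figure D2:**
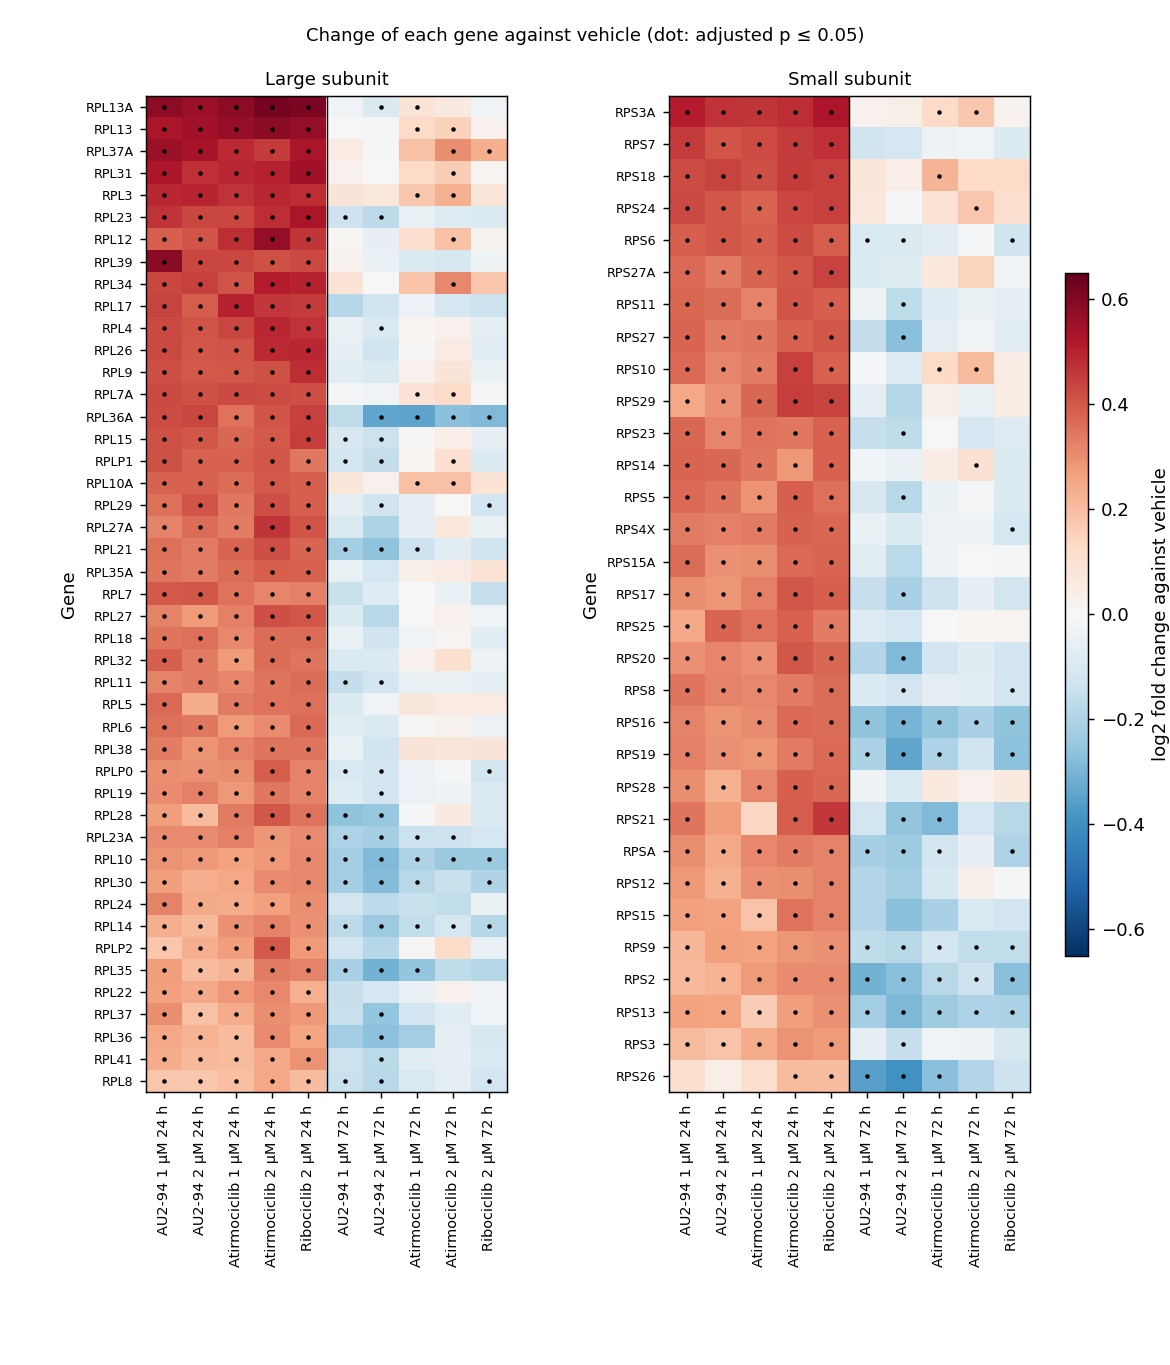
Log2 fold change against vehicle of 76 of the 77 genes (rows, by subunit and ordered by the mean change at 24 h) in the 10 treatment groups (columns), coloured from -0.65 to 0.65, with a dot where the limma adjusted p was at most 0.05. The 24 h columns are higher throughout, while the 72 h columns are pale, with more genes called lower than higher except for atirmociclib 2 µM.

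At 72 h the changes were smaller and differed in direction among genes. With AU2-94 1 µM, 21 of 77 genes fell (background 17.0%) and none rose (background 15.4%), with a median of -0.10, and with AU2-94 2 µM 39 fell (background 15.3%) and none rose (background 14.2%), with a median of -0.14. At an unadjusted p under 0.05 in limma, 1 gene was higher with AU2-94 1 µM and 0 with 2 µM. With atirmociclib 1 µM, 16 fell (background 19.8%) and 8 rose (background 20.0%), with a median of -0.04, and with atirmociclib 2 µM 8 fell (background 19.6%) and 13 rose (background 20.9%), with a median of -0.01. With ribociclib 16 fell (background 15.4%) and 1, RPL37A, rose (background 15.5%), with a median of -0.07. The shares called with atirmociclib and the shares rising with AU2-94 and ribociclib were thus near or below the background.

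The split at 72 h moved with the scaling of the libraries. For atirmociclib 2 µM, 13 higher and 8 lower as deposited became 6 and 24 with equal library totals, 8 and 17 with totals equal outside these genes and the mitochondrial genome, 6 and 26 with quantile normalisation, and 22 and 7 with a correction for GC content and length. For atirmociclib 1 µM, 8 and 16 became 5 and 23, 5 and 19, 4 and 25, and 12 and 13 under the same 4 settings. For AU2-94 1 µM, 0 and 21 became 2 and 14, 2 and 14, 2 and 12, and 0 and 31, while for AU2-94 2 µM 0 and 39 became 1 and 28, 1 and 28, 0 and 25, and 0 and 47. For ribociclib, 1 and 16 became 1 and 24, 0 and 21, 1 and 21, and 3 and 17. Single libraries mattered too. Without replicate 2 of ribociclib 34 genes were lower and without its replicate 1 there were 10. For its higher count, 0 remained without its replicate 2 or without vehicle replicate 1 or 3, and 2 were called without its replicate 3. Without replicate 1 of AU2-94 1 µM 13 were lower and without vehicle replicate 2 there was 1 higher, and without replicate 2 of AU2-94 2 µM 23. For atirmociclib 1 µM the lower genes numbered 10 without its replicate 1, 9 without its replicate 2 and 8 without vehicle replicate 1, and the higher genes 4 without its replicate 3. For atirmociclib 2 µM 5 were lower without its replicate 3.

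**Figure D3:**
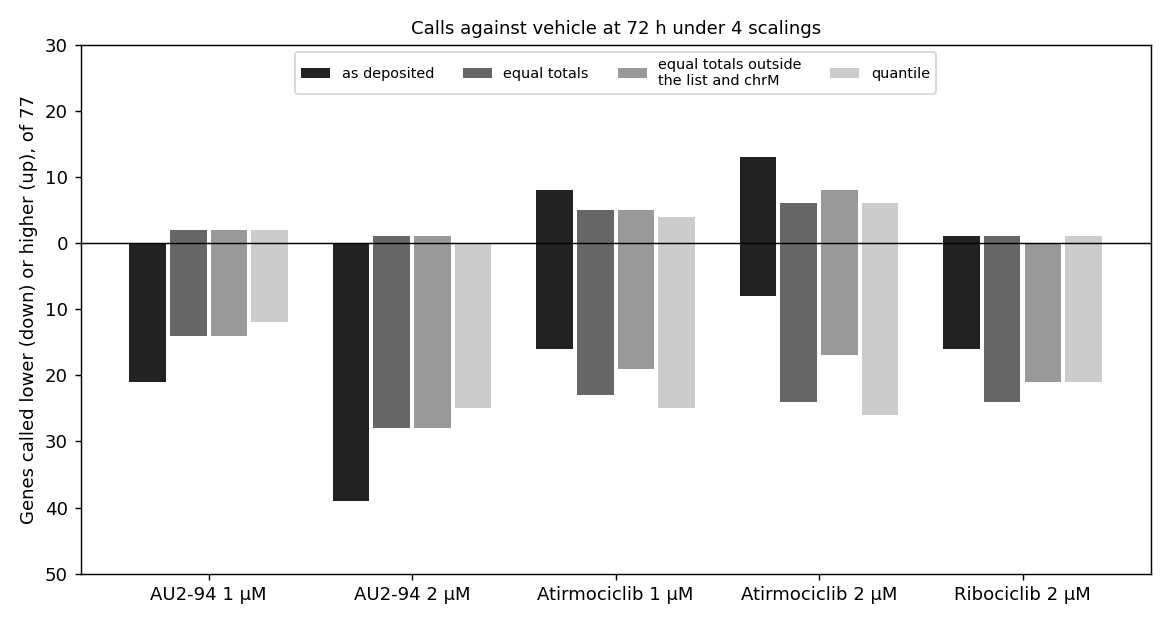
Number of the 77 genes called higher (upward bars) and lower (downward bars) against vehicle at 72 h (limma adjusted p at most 0.05) in the 5 treatments under 4 scalings of the libraries. For atirmociclib 2 µM the bars change from 13 higher and 8 lower as deposited to 6 higher and 24 lower with equal totals, while lower calls outnumber higher calls for AU2-94 and ribociclib under each of the 4.

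In all 5 treatments at 72 h, 6 of the 77 genes fell, namely RPL10, RPL14, RPS2, RPS9, RPS13 and RPS16, a share close to the 8.59% of all genes tested that did so. RPS16, which reaches into the decoding site, measured 15665, 15108 and 15064 in vehicle at 72 h, 12262, 13166 and 12873 with AU2-94 1 µM, and 12815, 12076 and 12240 with AU2-94 2 µM. It measured 12097, 12844 and 13445 with atirmociclib 1 µM, 13786, 12721 and 13080 with atirmociclib 2 µM, and 12216, 13520 and 12592 with ribociclib. All treated libraries were below all vehicle libraries, the reverse of 24 h, when its vehicle libraries measured 13503 to 14100 and the treated 15783 to 18316. The log2 fold changes at 72 h were -0.30 to -0.21 (SE 0.047), with limma adjusted p of 7.57e-05 to 0.00126. RPL10 measured 12033, 12294 and 12600 in vehicle and 9665 to 11225 (median 10502) in treated libraries (-0.29 to -0.20), and RPS2 51129, 52093 and 54522 in vehicle and 40703 to 49016 (median 44625) in treated libraries (-0.31 to -0.14). Neither overlapped between vehicle and treatment. In 7 of the 77 genes all treated libraries lay below all vehicle libraries at 72 h, which is no larger a share than the 11.3% of all genes tested with this pattern.

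RPL36A had the lowest mean change at 72 h (-0.28). It is a small large subunit protein with a close paralog, RPL36AL. At 24 h it measured 8324, 8896 and 8661 in vehicle and 10677 to 12296 (median 11460) in treated libraries. At 72 h it measured 11610, 10784 and 13794 in vehicle and 8631 to 12020 (median 9805) in treated libraries, so vehicle and treated libraries overlapped through replicate 2 of AU2-94 1 µM. RPL36A fell with the other 4 treatments (-0.34 to -0.27, SE 0.087, limma adjusted p 0.00408 to 0.018) and was not called with AU2-94 1 µM (-0.17, adjusted p = 0.156). Its paralog RPL36AL rose at 24 h (0.31 to 0.47 in all 5 treatments) and was called in none at 72 h (-0.14 to 0.05). RPS26 was also low at 72 h, with 12896 to 15613 in vehicle and 10245 to 16752 in treated libraries, where the highest was replicate 2 of ribociclib. RPS26 fell with both doses of AU2-94 and atirmociclib 1 µM (-0.39 to -0.27) and was not called with the other 2 treatments (-0.19 and -0.13).

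The highest genes at 72 h were RPL37A, RPL34, RPL3 and RPS18, with mean changes of 0.16, 0.15, 0.13 and 0.12. RPL3, a core protein near the peptidyl transferase centre, measured 26354, 28249 and 26874 in vehicle and 27975 to 32321 (median 29249) in treated libraries, of which 12 exceeded all vehicle libraries. RPL3 rose with atirmociclib 1 µM (0.18) and 2 µM (0.23, SE 0.034, limma adjusted p = 2.12e-05) and not with AU2-94 (0.09 and 0.07) or ribociclib (0.08). RPL37A measured 13125 to 13763 in vehicle and 12718 to 19364 (median 14801) in treated libraries, the highest again replicate 2 of ribociclib. It rose with atirmociclib 2 µM (0.30, adjusted p = 0.00895) and ribociclib (0.24, adjusted p = 0.0443). RPL34 was called with atirmociclib 2 µM and RPS18 with atirmociclib 1 µM.

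At 72 h the genes chosen by role were split. RPLP0 fell with AU2-94 at both doses and with ribociclib (-0.12 to -0.10), whereas RPLP1 fell with AU2-94 at both doses, rose with atirmociclib 2 µM (0.11) and was not called in the rest. RPS19 fell in 4 of 5 treatments (-0.34 to -0.20) and RPSA in 4 (-0.23 to -0.12). RPS6 fell in 3 (-0.13 to -0.09). RPL11 fell with both doses of AU2-94 and RPL41 with AU2-94 2 µM. RPL5, RPL22, RPLP2 and RPS27A were not called with any agent at 72 h (log2 differences -0.19 to 0.14).

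Vehicle cells themselves differed between the times. Against 24 h, 29 of 77 genes were higher in vehicle at 72 h, where 3.85% of all genes tested were, with a median of 0.16, and none was lower (0 also at an unadjusted p under 0.05 in limma). The count was 11 with quantile normalisation, 15 with equal totals, 17 with totals equal outside these genes and 57 with the GC and length correction, and 13 without vehicle 24 h replicate 1 or 19 without vehicle 72 h replicate 1. RPL36A (0.48, SE 0.075), RPS2 (0.34, SE 0.040) and RPS21 (0.33, SE 0.11) had the greatest differences, of which RPS21 did not pass the test (limma adjusted p = 0.064). RPL13 (-0.01), RPS12 (0.00) and RPS18 (0.02) had the lowest.

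The effect of treatment itself differed between the times. Comparing the effect at 72 h with that at 24 h, it was lower for 76 genes with AU2-94 1 µM (median -0.46, background 11.5%), 75 with AU2-94 2 µM (-0.48, background 9.28%), 69 with atirmociclib 1 µM (-0.37, background 10.6%), 71 with atirmociclib 2 µM (-0.39, background 9.96%) and 69 with ribociclib (-0.45, background 9.66%). It was higher for none, also at an unadjusted p under 0.05 in limma. RPL36A had the greatest fall in effect in 4 of the 5 treatments (-0.77 to -0.68) and RPL17, at the tunnel exit, with AU2-94 1 µM (-0.62). This difference includes the higher vehicle level at 72 h.

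**Figure D4:**
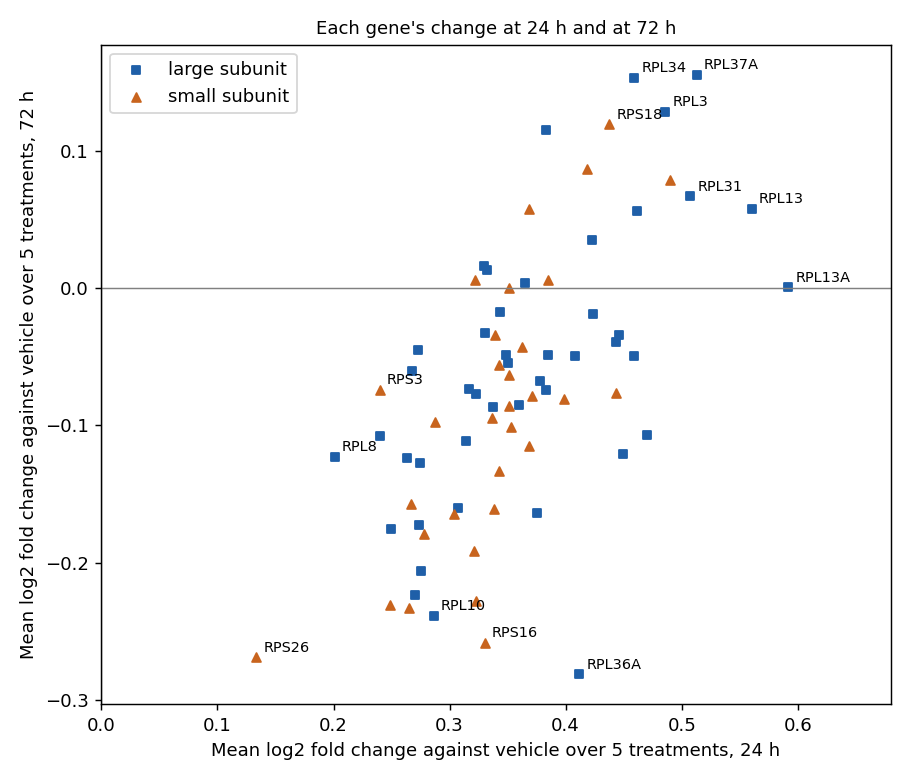
Mean log2 fold change against vehicle over the 5 treatments at 24 h (horizontal axis) and 72 h (vertical axis) for 76 of the 77 genes, by subunit, with genes among the highest and lowest at each time named. All genes shown lie to the right of 0 at 24 h, from RPS26 (0.13) to RPL13A (0.59), and spread from -0.28 (RPL36A) to 0.16 (RPL37A) at 72 h.

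Across the 77 genes, the mean change at 24 h and that at 72 h had a Pearson correlation of 0.64. Genes are not independent replicates, the 5 treatments of a time share its vehicle libraries, and the 2 times share no library. The mean change had correlations at 24 h and 72 h of -0.31 and -0.22 with GC content, and 0.03 and 0.06 with log2 transcript length. Genes with the TOP start and the 16 matched genes without it had medians of 0.35 and 0.36 at 24 h and -0.07 and -0.05 at 72 h. The tract was scored only at the annotated RefSeq start. A gene whose start is annotated off the tract therefore counts as without it. Small nucleolar RNA genes, 60 in all, lay within 28 of the 77 genes, and those hosts had a median of 0.34 at 24 h against 0.35 in the other 49. Within groups, the deviations of 2 ribosomal protein genes from their group means correlated with a median of 0.48 over the 2926 pairs, which share the same libraries.

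By subunit, the difference between large and small was not tested. At 24 h the median log2 fold change was 0.34 to 0.40 for large and 0.31 to 0.38 for small subunit genes across the 5 treatments, with 44 to 46 of 46 and 29 to 31 of 31 genes called higher. At 72 h 22 of 46 large (median -0.13) and 17 of 31 small subunit genes (median -0.17) fell with AU2-94 2 µM, and atirmociclib 2 µM gave 9 higher and 4 lower among the large (0.02), and 4 higher and 4 lower among the small (-0.03). Large subunit genes held 3.22 to 3.35% of the total in vehicle at 24 h and small subunit genes 1.95 to 2.05%. In treated libraries at that time they held 3.93 to 4.30% and 2.31 to 2.54%. The ratio of the summed values, large to small, was 1.63 to 1.65 in the 3 vehicle libraries at 24 h and 1.66 to 1.72 in the 15 treated libraries, all of which were above vehicle. At 72 h it was 1.60 to 1.65 in vehicle and 1.60 to 1.69 in treated libraries, of which 12 were above all vehicle libraries. The mean log2 value of the large minus that of the small subunit genes was 0.108 ± 0.006 (SD, n = 3) in vehicle at 24 h and 0.104 ± 0.021 at 72 h. In treated groups its means ran from 0.118 to 0.146, and over single libraries from 0.080 to 0.173. On this measure vehicle and treated libraries overlapped at 24 h. Vehicle ran from 0.103 to 0.114, and replicate 2 of ribociclib stood at 0.101. With medians in place of means they overlapped too, at 0.033 to 0.180 in vehicle and 0.068 to 0.185 in treated libraries. The separation at 24 h thus held for the summed values only.

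Levels were compared between genes per kilobase of the Ensembl canonical transcript. RPS2 had the highest value (50098 normalised counts per kb) and RPL37 the lowest (2013), and the middle 50% of genes lay between 7822 and 24720. The median was 14578 per kb for large and 18403 for small subunit genes, whereas per kb of coding length it was 33834 for large and 30667 for small, so the order of the subunits turned. The order depends on the length used, because several canonical transcripts, such as that of RPL37 (7573 bases), are far longer than the coding part. Ranks per kb of canonical and of coding length had a Spearman correlation of 0.46. RPS19 ranked 74 by canonical, 72 by merged exon and 73 by coding length, and RPL22 75, 75 and 69, so both were near the bottom of the 77 on each scale. RPS2 ranked 1, 1 and 10.

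The agents were compared at matched dose and time in 8 comparisons. At 24 h no gene was called between atirmociclib and AU2-94 at 1 µM (background 1.48% higher), between ribociclib and AU2-94 at 2 µM (background 0.0186%) or between atirmociclib and ribociclib at 2 µM (background 1.83%), where 0, 8 and 3 genes were higher and 1, 0 and 0 lower at an unadjusted p under 0.05 in limma. Atirmociclib was higher than AU2-94 at 2 µM for 4 genes, RPL28, RPL12, RPL27 and RPLP2 (background 5.12%), a share near the background as deposited. These counts moved with the correction for GC content and length, under which 33 genes were higher with atirmociclib than with AU2-94 at 2 µM and 11 at 1 µM, 3 with ribociclib than with AU2-94 and 2 with atirmociclib than with ribociclib. The count of 4 became 1 without a filter on low values, without the trend, with only the groups compared or with totals equal outside these genes. It fell to 1 without AU2-94 replicate 1 or atirmociclib replicate 1 and to 2 without atirmociclib replicate 2. The 95% intervals of single genes, from the limma SE with 12 residual degrees of freedom, had a median width of ±0.10. The limma p-values use more degrees of freedom, so these intervals are wider than those the tests would give. For RPL13A, the difference of atirmociclib minus AU2-94 at 2 µM was 0.06, with an interval of -0.02 to 0.15, and for RPS6 it was 0.02 (-0.07 to 0.11).

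At 72 h, 32 genes were higher with atirmociclib than with AU2-94 at 2 µM (median 0.14, background 11.1%) and none was lower, adjusted or at an unadjusted p under 0.05 in limma. RPLP1 differed by 0.26 (SE 0.037, adjusted p = 4.00e-05) and RPS10, a small subunit protein near the mRNA entry, by 0.29 (SE 0.040, adjusted p = 4.28e-05). RPL13A measured 42386, 42484 and 42743 with AU2-94 2 µM and 46958, 48610 and 46709 with atirmociclib 2 µM, without overlap. The count was 4 with equal totals, 3 with quantile normalisation, 5 with totals equal outside these genes, 21 without the trend and 63 with the GC and length correction, and the median of all genes tested itself moved by -0.10 with equal totals. Without AU2-94 2 µM replicate 2 there were 20. Atirmociclib was also higher than ribociclib at 2 µM for 12 genes (median 0.06, background 4.83%), which became 2 with equal totals or with only the groups compared, 1 with quantile normalisation, 3 with totals equal outside these genes or without the trend, 7 without a filter and 30 with the GC and length correction, and was 6 without atirmociclib replicate 2, 7 without ribociclib replicate 1 or 3, and 22 without ribociclib replicate 2. At 1 µM, atirmociclib exceeded AU2-94 for 6 genes (background 4.53%), near the background as deposited, with 0 under either kind of equal totals, quantile normalisation, no filter or no trend, 21 with the GC and length correction, 3 with the replicate block and 1 to 3 whichever of the 6 libraries was left out. Ribociclib and AU2-94 at 2 µM differed for 0 genes (background 1.96%, 14 higher and 0 lower at an unadjusted p under 0.05 in limma), or 1 with the GC and length correction and 2 without ribociclib replicate 1 or 3, and the median of 0.08 became 0.02 without its replicate 2. For RPLP0 this difference was 0.00, with an interval of -0.08 to 0.08.

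Between 2 and 1 µM no ribosomal protein gene was called for either agent at either time. The share of all genes tested that was called between doses is not given here, so these counts have no background beside them. At an unadjusted p under 0.05 in limma, AU2-94 2 µM was higher for 1 gene at 24 h and lower for 4 at 72 h, and atirmociclib 2 µM was higher for 9 at 24 h and 2 at 72 h. The median differences were -0.02 and 0.04 at 24 h and -0.05 and 0.04 at 72 h for AU2-94 and atirmociclib.

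Ribosomal components with other symbols were read separately. FAU, which encodes a small subunit protein fused to a ubiquitin-like sequence, rose in all 5 treatments at 24 h (0.22 to 0.35) and fell in 3 at 72 h. RACK1, a scaffold on the 40S head, rose in all 5 at 24 h (0.32 to 0.44) and fell in 1 at 72 h. Of 6 tested paralogs, 2 to 4 rose at 24 h, where 14.3 to 18.6% of all genes tested did. RPS27L fell in all 5 treatments at 72 h (-0.73 to -0.38), and its 24 h change did not pass the test (0.00 to 0.15). RPL22L1, the paralog of RPL22, rose with 2 treatments at 24 h and fell with 3 at 72 h. RPL26L1 and RPL36AL rose in all 5 at 24 h, RPL10L (27.5 to 76.8 normalised counts) rose in 3, and RPL7L1 was called in none (-0.09 to 0.10). RPL3L was too low to be tested, and RPL39L was not analysed here.

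Other parts of the translation machinery were read from lists. Beside the counts below, 14.3 to 18.6% of all genes tested rose at 24 h and 15.3 to 19.8% fell at 72 h. Of 5 elongation factor genes, 3 or 4 rose at 24 h (medians 0.27 to 0.49). EEF1A1, which delivers aminoacyl-tRNA, stood at 0.49 to 0.56 and EEF1G at 0.38 to 0.52. At 72 h EEF1G rose in all 5 treatments as well (0.10 to 0.40) and EEF1A1 in 2. EEF1B2 and EEF1D fell in 3 each at 72 h, and EEF2 was not called. Of 13 subunits of the initiation factor eIF3, 8 to 10 rose at 24 h, with EIF3E at 0.33 to 0.49, while EIF3B, EIF3G, EIF3K and EIF3M fell in all 5 treatments at 72 h. Of 8 other mRNAs known for a TOP tract, 6 or 7 rose at 24 h (medians 0.20 to 0.27), with EIF4B at 0.36 to 0.50 and NACA at 0.35 to 0.41. HNRNPA1 instead fell with 2 treatments at 24 h, and HNRNPA1, NPM1 and BTF3 fell in all 5 at 72 h. Of 10 snoRNA host transcripts, which include TOP transcripts such as GAS5 (0.28 to 0.35 at 24 h), 6 or 7 rose at 24 h and SNHG1 fell in all 5 treatments at both times.

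Of the 13 genes in the mTORC1 and LARP1 list, 2, 1, 3, 3 and 2 rose and 4, 6, 4, 3 and 3 fell at 24 h with AU2-94 1 and 2 µM, atirmociclib 1 and 2 µM and ribociclib. The shares of all genes tested that fell were 13.5, 14.9, 15.4, 16.2 and 15.2% in that order, beside the rising shares given above. EIF4EBP1 and EIF4EBP2, the repressors of cap-binding eIF4E, fell in all 5 treatments at both times (EIF4EBP1 -0.50 to -0.36 at 24 h and -0.95 to -0.45 at 72 h). RPTOR, the substrate-binding subunit of mTORC1, fell in all 5 at 24 h (-0.42 to -0.24), and TSC2, which restrains mTORC1, rose in all 5 at 24 h (0.26 to 0.40). LARP1 fell with 2 treatments at 24 h and 2 at 72 h. LARP4 rose with 4 treatments and MLST8 with 2 at 24 h. At 72 h TSC2 rose with 4 and MTOR with 2, while MLST8 fell with 5, RHEB and RPS6KB2 with 3 each and RPTOR with 1. Of 9 chaperone and assembly factor genes for ribosomal proteins, 1 to 3 rose at 24 h and 4 to 7 fell at 72 h. Among all genes tested, 14.3 to 18.6% rose at 24 h and 15.3 to 19.8% fell at 72 h. GRWD1, LTV1, RPF2 and RRS1 were lower in all 5 treatments at 72 h.

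The mitochondrial ribosomal proteins, which build the separate ribosome of mitochondria, were read from a list of 78 genes. Of these, 7, 8, 13, 26 and 19 rose at 24 h with AU2-94 1 and 2 µM, atirmociclib 1 and 2 µM and ribociclib, with medians of 0.02 to 0.15. These are 8.97, 10.3, 16.7, 33.3 and 24.4% of the list, where 14.3, 16.0, 16.6, 18.6 and 16.8% of all genes tested rose. At 72 h 55, 54, 51, 36 and 37 of them fell, with medians of -0.28 to -0.20, where 17.0, 15.3, 19.8, 19.6 and 15.4% of all genes tested fell. The difference between the cytosolic and mitochondrial lists was not tested.

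**Figure D5:**
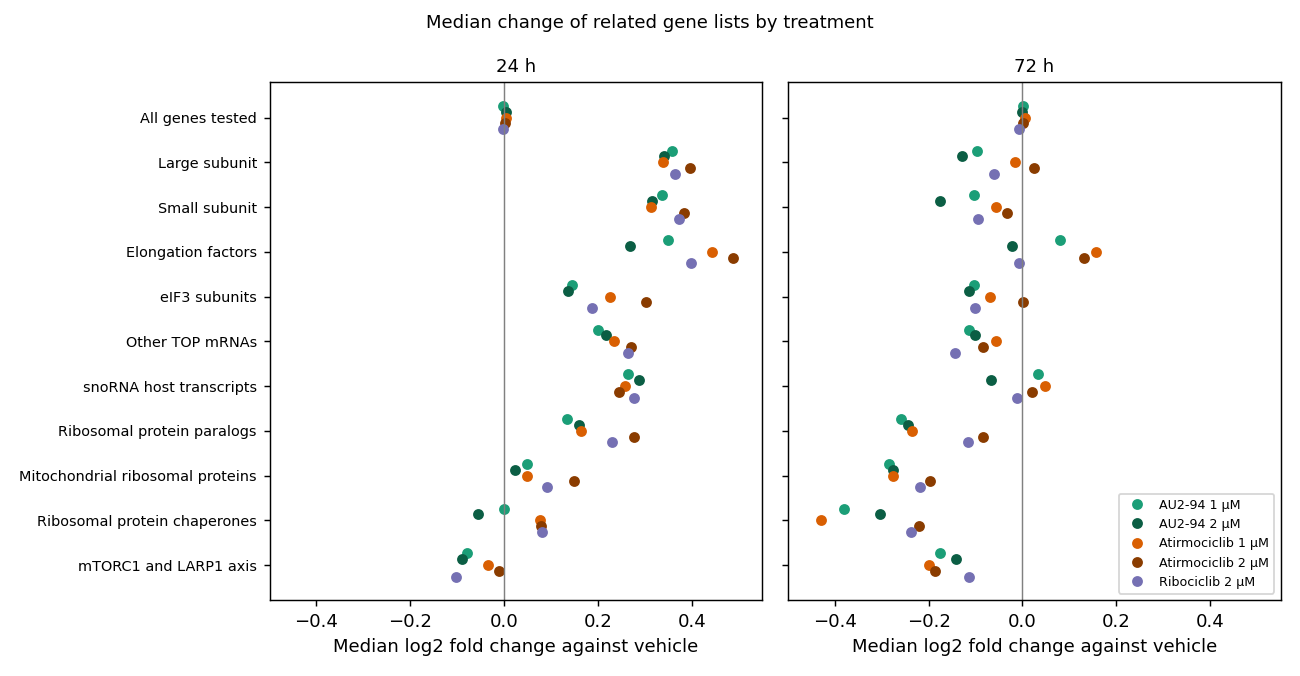
Median log2 fold change against vehicle at 24 h (left) and 72 h (right) of all genes tested, of the 2 subunits and of 8 related gene lists, with 1 point for each of the 5 treatments. Large and small subunit medians lie at 0.31 to 0.40 at 24 h and at -0.17 to 0.02 at 72 h, while the mitochondrial ribosomal protein medians lie at 0.02 to 0.15 and at -0.28 to -0.20.

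Ribosomal protein genes have many near-identical copies elsewhere in the genome. GENCODE release 44 names 1588 pseudogenes after the 77 genes, and each of the 77 has at least 1. None of these pseudogenes is in the deposited table, whose 29872 genes include 17944 protein-coding and 11849 long non-coding RNA genes. Shares of the library total are shares of the genes in that table. How reads that match several copies were counted is not given in the sources used here, so the values of single genes are uncertain to that extent. Exons of 26 of the 77 genes overlap an annotated gene on the opposite strand and those of 11 overlap a gene on the same strand, and the strand setting of the counting is not given either.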

How the data were processed

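RNA from LNCaP cells (12 groups, 3 replicates each) was sequenced by the authors as paired reads from total RNA libraries. Per the labels and methods, reads were aligned to GRCh38 with STAR 2.6.1d in an nf-core pipeline and analysed with DESeq2. The details of the normalisation, the counter, the annotation and the strand setting are not given in the sources used here. The deposited table holds normalised counts as a signal per gene, fractional values from which whole reads could not be recovered, so the depth behind each value is unknown and no count model was fitted. Library totals of the deposited values show scale, not depth. Rescaling each library by the median ratio of its genes to their geometric means left the calls as deposited. For AU2-94 1 µM at 24 h, 76 genes were higher with a median of 0.35 either way. That setting therefore adds no separate check. All columns were mapped to samples by name.

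Genes of at least 10 in at least 3 fitted libraries were tested with limma 3.58.1 (R 4.3.3) on log2(value + 1) with a mean-variance trend: 16137 genes at 24 h and 16341 at 72 h (6 groups in 1 fit each), and 16850 over both times. Adjusted p-values are Benjamini-Hochberg per contrast, and "rose" and "fell" mean an adjusted p of at most 0.05. For comparisons between agents and over time, background shares are given only in the direction of the reported calls. Counts of 0 in the other direction have no background beside them. Fold changes are on the log2(value + 1) scale. Symbols and positions come from GENCODE release 44 (GRCh38). In simulated data for a 24 h comparison (16038 genes), changes were planted among highly expressed genes only, with noise drawn independently for each gene. Of these, 65% of 100 genes planted at 0.3 log2 and 95% of 100 at 0.6 were recovered. The simulation did not include the correlation between ribosomal protein genes within groups. Named genes were a list fixed by role, the 4 highest and 4 lowest by mean change at each time, and the 3 highest and 3 lowest in vehicle over time, and any past a log2 fold change of 1, of which there were none. RPL27, RPL37, RPL12, RPL28, RPL30, RPS10, RPL17, RPL14, RPS9 and RPS13 were named after their values were seen. Some genes are not reported here by name. The genes and lists were chosen with earlier results of these data known. The labels give the replicate number as a batch, which is where the pairing comes from. Deviations of same-numbered libraries from their group means had a mean correlation of 0.0018 at 24 h and -0.0022 at 72 h over all genes. Alternatives covered the pseudocount, filters, scaling, a replicate block, the libraries fitted, the trend, a correction for GC content and length, and leaving out each library. For agents and doses, those other than quantile normalisation, equal totals, the replicate block and leaving out a library were added after seeing the data.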

Additional observations from a re-analysis of the deposited data

Results flagged for a closer look

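The effect of treatment on the ribosomal protein genes differed between 24 h and 72 h by a test of the difference itself (limma over all 36 libraries). It differed for 76 of 77 genes with AU2-94 1 µM, 75 with AU2-94 2 µM, 69 with atirmociclib 1 µM, 71 with atirmociclib 2 µM and 69 with ribociclib, in each case lower at 72 h. The greatest differences were those of RPL17 with AU2-94 1 µM (-0.62) and of RPL36A with AU2-94 2 µM (-0.77), atirmociclib 1 µM (-0.69), atirmociclib 2 µM (-0.68) and ribociclib (-0.73). The vehicle level of RPL36A was itself higher at 72 h (0.48), and seeding density also differed between the times. Their part in the result was not tested.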

How the results depend on the processing

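Against vehicle at 24 h the number of genes called higher stayed within 1.5 times the reported count under every alternative run (51 to 61 with quantile normalisation). The median at 24 h moved with quantile normalisation to 0.22, 0.21, 0.17, 0.20 and 0.22 (AU2-94 1 and 2 µM, atirmociclib 1 and 2 µM, ribociclib), with equal totals to 0.27, 0.31 and 0.31 for atirmociclib 1 and 2 µM and ribociclib, and with the GC and length correction to 0.38 and 0.46 for atirmociclib. Among the genes named in the text, quantile normalisation turned 11 called changes at 24 h below 0: RPL41 with atirmociclib (-0.028 and -0.0011), RPL8 (-0.013, -0.038, -0.027 and -0.028 with AU2-94 1 and 2 µM, atirmociclib 1 µM and ribociclib), RPS3 (-0.017, -0.046 and -0.023 with AU2-94 1 and 2 µM and atirmociclib 1 µM) and RPS2 with AU2-94 (-0.00040 for both doses). The cause was not tested.

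At 72 h, lower and higher counts past 1.5 times the reported one were as follows. Quantile normalisation gave 12 lower and 2 higher for AU2-94 1 µM, 25 lower for AU2-94 2 µM, 25 lower and 4 higher for atirmociclib 1 µM, and 26 lower and 6 higher for atirmociclib 2 µM (median -0.099). Equal totals gave 2, 1, 5 and 6 higher in that order and 24 lower for atirmociclib 2 µM (median -0.087), and totals equal outside these genes 2, 1, 5 and 8 higher, 17 lower for atirmociclib 2 µM (median -0.069) and 0 higher for ribociclib. The GC and length correction gave 22 higher for atirmociclib 2 µM (median 0.058) and 3 for ribociclib. Without a filter there were 25 lower for AU2-94 2 µM and 0 higher for ribociclib. Without the trend there were 23, 10, 5 and 10 lower for AU2-94 2 µM, atirmociclib 1 and 2 µM and ribociclib, with 0 higher for ribociclib, and with only the groups compared 9 lower and 0 higher for ribociclib.

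Vehicle at 72 h against 24 h gave 11 higher (median 0.054) with quantile normalisation, 15 (0.10) with equal totals, 17 with totals equal outside these genes and 57 with the GC and length correction. The median change of effect moved with quantile normalisation to -0.28, -0.31, -0.26, -0.28 and -0.28, and with equal totals to -0.38 and -0.41 for AU2-94. Between agents, atirmociclib 2 µM against AU2-94 at 24 h gave 1 with quantile normalisation or equal totals. At 72 h, with quantile normalisation and equal totals, it gave 3 and 4 (medians 0.021 and 0.040), atirmociclib 1 µM against AU2-94 0 and 0 (0 and 0.0041), and atirmociclib against ribociclib 1 and 2 (-0.013 and 3.4e-05), and ribociclib against AU2-94 a median of 0.022 with quantile normalisation. For the agent comparisons the settings in the next sentences were added after seeing the data. The GC and length correction gave, at 24 h, 11 higher for atirmociclib against AU2-94 at 1 µM (median 0.066), 33 at 2 µM (0.14), 3 for ribociclib against AU2-94 and 2 for atirmociclib against ribociclib, and at 72 h 21, 63 (0.22), 1 and 30 (0.14) in the same order. Totals equal outside these genes gave 1 for atirmociclib 2 µM against AU2-94 at 24 h, and at 72 h 0 (median 0.015) at 1 µM, 5 (0.064) at 2 µM and 3 against ribociclib. Without the trend there were 1 at 24 h and 0, 21 and 3 at 72 h for these same comparisons, without a filter 1 at 24 h and, at 72 h, 0 at 1 µM and 7 against ribociclib, and with only the groups compared 1 at 24 h and 2 against ribociclib at 72 h. Under these added settings no other count in the agent comparisons, and none between doses, moved by over 1.5 times. With the replicate block, atirmociclib 1 µM against AU2-94 at 72 h fell from 6 to 3, and no other count moved by over 1.5 times. The labels' batch number is the source of this pairing.

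Leaving out 1 library gave these ranges. Lower at 72 h: 13 to 20 for AU2-94 1 µM, 23 to 38 for AU2-94 2 µM, 8 to 17 and 5 to 8 for atirmociclib 1 and 2 µM, and 10 to 34 for ribociclib (median -0.13 to -0.035). Higher: 0 to 1 for AU2-94 1 µM, 4 to 9 for atirmociclib 1 µM and 0 to 2 for ribociclib. Vehicle over time gave 13 to 26, and the ribociclib change of effect a median of -0.50 to -0.41. Between agents, atirmociclib against AU2-94 gave 1 to 6 at 2 µM and 24 h, 20 to 31 at 2 µM and 72 h and 1 to 3 at 1 µM and 72 h, atirmociclib against ribociclib at 72 h gave 6 to 22 (median 0.034 to 0.13), and ribociclib against AU2-94 gave 0 to 2 (median 0.021 to 0.097). The large minus small subunit difference ran from 0.033 to 0.34 when taken from medians rather than means. Ranks per length used canonical, merged exon and coding length, the last chosen after seeing the data. Because the read depth behind the deposited values is unknown, limits of detection could not be set, and 3 libraries a group limit the precision of single genes. Of the single named genes, 4592 of their alternatives stayed the same, 243 lost a call and 95 gained one. A further 116 moved and 11 reversed direction.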
